A study of Homo sapiens with 74 samples.

Results

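The V133A and wild-type forms of the bacterial DNA adenine methylase Dam were compared while fused to lamin B1 (LMNB1), in 4 bulk libraries out of the 74 samples of the series. The members were chosen by their construct labels: 2 libraries of DamV133A-LMNB1 and 2 of wild-type Dam fused to LMNB1 (DamWT-LMNB1). All came from HEK293T, a human embryonic kidney line that expresses the SV40 large T antigen. The same table held 2 libraries of untethered DamV133A and 2 of untethered DamWT, which served as the background without a tether. Per the labels, plasmids were introduced by transient transfection and protein was stabilised with 1 mM Shield-1 over 20 hours. The same protocol text stands on every sample and names Dam-LMNB1 together with m6A-Tracer, which recognises GATC once methylated, while the transfection labels of these 8 libraries name a Dam construct alone. The fusion was therefore expressed from a plasmid beside the cells' own lamin B1. Other HEK293T samples were used only as references: 4 deeper bulk libraries (2 of DamV133A-LMNB1, 2 of DamV133A), 51 single cells with DamV133A-LMNB1 or its tdTomato form and a form of m6A-Tracer, and RNA of 2 untransfected samples. The labels do not say that the 2 replicates of a construct came from separate cultures, so p-values measure the spread between these libraries, which may be technical.

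Lamin B1 is a filament protein of the nuclear lamina, the meshwork under the inner nuclear membrane. Large, mostly gene-poor stretches of chromosomes touch this meshwork and are known as lamina-associated domains (LADs), and the stretches between them as inter-LADs (iLADs). In DNA adenine methyltransferase identification (DamID), Dam methylates the adenine of GATC sites near the protein it is fused to, and the enzyme DpnI then cuts methylated sites so that fragments between them can be amplified and sequenced. Dam also methylates accessible DNA wherever it diffuses. V133A puts an alanine in place of a valine in Dam, and the variant has been described as less active than the wild type on unmethylated DNA. The comparison addressed how the choice of enzyme changes the map that the same lamin fusion gives.

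The unit of measurement was the DpnI fragment, the DNA between neighbouring GATC sites, and gene starts show how these sites divide the genome. Both sequences below are the 250 bases before a RefSeq gene start (GRCh38.p14), with GATC in capitals, and were chosen after their values were seen, 1 from a bin that was higher with V133A and 1 from a bin that was lower. The first lies before RGS18, which encodes a regulator of G-protein signalling of blood cells, at chr1:192158212-192158461 on the plus strand. The second lies before PFKM, the muscle form of the glycolytic enzyme phosphofructokinase, at chr12:48105103-48105352 on the plus strand.
RGS18: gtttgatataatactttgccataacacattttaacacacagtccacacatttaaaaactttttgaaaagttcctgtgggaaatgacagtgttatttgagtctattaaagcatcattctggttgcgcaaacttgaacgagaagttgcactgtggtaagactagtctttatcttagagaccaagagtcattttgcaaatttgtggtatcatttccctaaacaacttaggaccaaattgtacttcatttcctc
PFKM: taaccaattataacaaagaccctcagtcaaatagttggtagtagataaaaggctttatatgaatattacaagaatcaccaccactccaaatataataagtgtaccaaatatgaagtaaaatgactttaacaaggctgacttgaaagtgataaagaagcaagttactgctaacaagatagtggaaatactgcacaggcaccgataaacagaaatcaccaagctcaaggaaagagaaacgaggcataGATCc
The window before RGS18 has no GATC, and 1 fragment (192158070 to 192159293) spans it. That fragment held 2 and 52 counts in the DamV133A-LMNB1 libraries, 0 and 0 in DamWT-LMNB1, 8 and 8 in untethered DamV133A, and 8 and 6 in untethered DamWT. The window before PFKM has 1 GATC, and the 2 fragments that touch it held 0 counts in each of the 4 tethered libraries, 9 and 6 in DamV133A and 0 and 0 in DamWT. GATC, which reads the same on both strands, was found in 35.7% of the 33725 autosomal RefSeq promoter windows of this length. At this scale replicates differed widely, so values are given mostly for 100 kb bins.

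The 8 libraries held 3162041 to 10666805 counts over 7180359 fragments with a median length of 263 bp. The DamV133A-LMNB1 replicates were alike, with 9375210 and 9008454 counts on 481922 and 481527 fragments. The DamWT-LMNB1 replicates were not: replicate 1 had 10666805 counts on 441781 fragments, or 24.1 per covered fragment, and replicate 2 had 4923830 on 847765, or 5.81. Across bins, log2 counts of DamWT-LMNB1 replicate 2 correlated at r = 0.821 and 0.829 with the DamV133A-LMNB1 libraries and at r = 0.771 with its own replicate, over 27212 bins that share the same GATC sites. In RNA of untransfected cells, the kidney developmental genes PAX2, SALL1 and LHX1 and the HEK293T genes NEFM and VIM were at 4.50 to 791 CPM (counts scaled to the library's total), and PTPRC, ALB and COL1A2, markers of blood, liver and fibroblasts, at 0.07 to 0.84. The LMNB1 gene itself (chr5:126776623-126837020) held 16.1 and 11.9 CPM with DamV133A-LMNB1, 10.5 and 11.4 with DamWT-LMNB1 and 13.9 to 19.6 in the untethered libraries, so its summed level did not mark the libraries with a LMNB1 plasmid. Among its fragments with most counts, chr5:126820744-126822066 held 14 and 26 counts with DamV133A-LMNB1 and 25 and 6 with DamWT-LMNB1. It held 0 and 0 with DamV133A and 0 and 1 with DamWT, and the others did not separate tethered from untethered libraries.

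The V133A fusion gave the stronger separation of lamina-associated from other DNA. LAD and iLAD bins were defined from 4 other, deeper bulk libraries, in which 9849 bins were higher and 10119 lower with DamV133A-LMNB1 than with DamV133A by edgeR's quasi-likelihood test (adjusted p under 0.05), and 10024 of the iLAD bins hold fragments of the table used here. Those libraries were also made with V133A. Counts per LAD bin exceeded counts per iLAD bin 6.73-fold and 7.48-fold in the DamV133A-LMNB1 libraries and 2.91-fold and 2.83-fold in the DamWT-LMNB1 libraries. As log2 values the contrast was 2.83 ± 0.11 for DamV133A-LMNB1 and 1.52 ± 0.03 for DamWT-LMNB1 (SD, n = 2 each), a difference of 1.31 ± 0.11, or 2.47-fold. The groups did not overlap, and the difference was larger than the spread between replicates. With 2 against 2 libraries an exact permutation test, taken two-sided, cannot go below p = 0.333, and gave that value. Without the tether the order was the opposite, with 0.08 ± 0.01 for DamV133A and 0.35 ± 0.01 for DamWT. Untethered DamV133A was the denominator of the classes, which can itself lower its contrast.

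**Figure D1:**
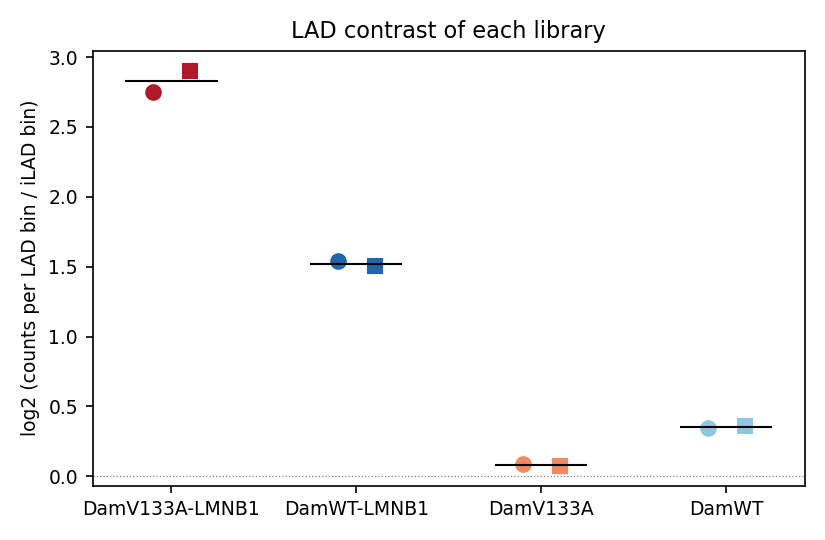
The vertical axis is the log2 ratio of counts per LAD bin to counts per iLAD bin in each of the 8 libraries, by construct. Circles are replicate 1, squares replicate 2 and bars the mean of each construct. The DamV133A-LMNB1 libraries sit at 2.75 and 2.90, above DamWT-LMNB1 with a mean of 1.52, and the untethered libraries lie between 0.07 and 0.36.

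As a ratio, the larger difference lay in DNA away from the lamina. LAD bins held 68.2% and 69.7% of the autosomal counts with DamV133A-LMNB1 and 56.3% and 55.5% with DamWT-LMNB1. iLAD bins held 10.3% and 9.48% with DamV133A-LMNB1 and 19.7% and 19.9% with DamWT-LMNB1, against 32.2% to 35.7% in the untethered libraries. The median LAD bin was at 63.7 and 64.8 CPM with the V133A fusion and 52.8 and 53.4 with the wild-type fusion, and the median iLAD bin at 7.89 and 7.16 against 17.0 and 17.8. Counts were also gathered in fewer places, since 50% of them fell in 17.9% and 17.4% of the bins with DamV133A-LMNB1, 22.9% and 25.4% with DamWT-LMNB1 and 31.0% to 32.2% without a tether.

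Many iLAD bins held few counts with the V133A fusion. As deposited, 8.04% and 8.57% of them were under 10 counts with DamV133A-LMNB1 and 1.61% and 0.818% with DamWT-LMNB1. After each library was thinned to 3162041 counts, 23.1% and 24.0% of iLAD bins were under 10 counts in the DamV133A-LMNB1 libraries, 7.34% and 1.68% in DamWT-LMNB1 and at most 0.698% in the untethered libraries. LAD bins were under 10 counts in at most 0.569% in any library. Fragments with at least 1 count were more concentrated in LADs as well: 11.8% and 12.4% of the LAD fragments and 3.34% and 2.96% of the iLAD fragments were covered with DamV133A-LMNB1. With DamWT-LMNB1, covered shares were 8.39% and 17.5% in LADs and 4.73% and 7.71% in iLADs. In LADs its replicates lay on both sides of the V133A fusion, and in iLADs both lay above it. The contrast in thinned covered fragments differed by 1.07 ± 0.14 on the log2 scale between the fusions. In unthinned counts, bins with no protein-coding gene set against bins with 3 or more, a division that uses no Dam library, gave a contrast difference of 0.87 ± 0.11.

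Bin by bin, LAD DNA was higher and iLAD DNA lower with the V133A fusion. Of 27212 bins tested, 1014 (3.73%) were higher and 1442 (5.30%) were lower in DamV133A-LMNB1 than in DamWT-LMNB1, by edgeR's quasi-likelihood test in 1 fit of the 8 libraries at a Benjamini-Hochberg adjusted p under 0.05. Of the 9837 LAD bins tested, 949 were higher and 3 lower, and of the 10000 iLAD bins 2 were higher and 1306 lower. The median log2 fold change was 0.52 in LAD bins, -0.89 in iLAD bins and -0.07 in the 7282 bins of neither class. Among the last, 25 rose and 131 fell. Another 93 bins were not in the deep bulk table, of which 38 were called higher, 2 were called lower and the median was 0.59. Their median level without a tether was 119 to 124 CPM after TMM, against 30.8 to 31.2 over all bins. Of such bins, tested or not, 81 lay on chromosome 13, more than on any other chromosome. The part of this level in the calls was not tested. Both DamV133A-LMNB1 libraries lay above both DamWT-LMNB1 libraries in 5660 LAD bins (57.5%) and 263 iLAD bins (2.63%), beside 26.1% of all bins. They lay below both in 235 LAD bins (2.39%) and 5297 iLAD bins (53.0%), beside 26.4% of all bins.

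The split between higher and lower bins depended on the scaling, since a library that gains counts in some bins loses share in others. With DESeq2 size factors 1634 bins were higher and 1361 lower, and with library totals alone 278 and 2168. The median of all bins was -0.02, 0.07 and -0.25 on the log2 scale under TMM, DESeq2 size factors and library totals, and the LAD median was 0.52, 0.61 and 0.29 and the iLAD median -0.89, -0.80 and -1.13. Counts of calls also rested on single libraries: 46 higher and 244 lower bins were left without DamWT-LMNB1 replicate 1, 1007 and 2864 without DamV133A-LMNB1 replicate 1, and 725 and 2649 without its replicate 2. Leaving out DamV133A replicate 1 or 2 left 371 or 377 higher and 398 or 394 lower bins, and leaving out DamWT replicate 1 or 2 left 232 higher bins each and 346 or 343 lower. Fitted to the 4 tethered libraries alone, edgeR called 1 bin higher and 0 lower, with 4980 at an unadjusted p under 0.05, against 7876 such bins in the fit of 8. DESeq2's Wald test on the 8 libraries called 3955 and 3288.

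**Figure D2:**
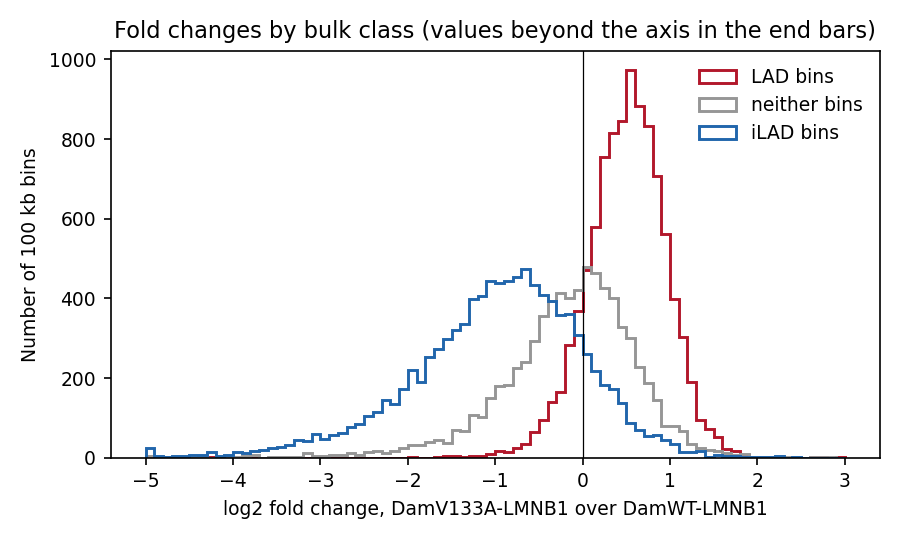
Histogram of the log2 fold change of DamV133A-LMNB1 over DamWT-LMNB1 (horizontal axis) in 100 kb bins (vertical axis, number of bins), by class from the deep bulk libraries, with values beyond the axis placed in the end bars. LAD bins peak on the positive side around their median of 0.52. iLAD bins spread widely on the negative side around -0.89, with the other bins between them.

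The difference followed the strength of lamina enrichment in the deep bulk libraries, which is that of DamV133A-LMNB1 over DamV133A. The libraries are other ones, but DamV133A-LMNB1 is the numerator of both, so the order can be partly set by that choice. When bins were divided into deciles of that enrichment, the median log2 fold change was -1.11 in the lowest decile, where 0 of 2712 bins were higher and 465 lower. It was -0.24 in the fifth, 0.06 in the sixth and 0.67 in the highest, where 502 bins were higher and 1 lower. In the lowest decile the median bin was at 6.31 and 6.30 CPM after TMM with DamV133A-LMNB1, 14.8 and 14.7 with DamWT-LMNB1 and 24.1 to 27.4 without a tether. In the highest it was at 96.6 and 102.9 against 64.7 and 60.3, with 30.5 to 35.8 in the untethered libraries. Thus in the lowest decile DamWT-LMNB1 lay between DamV133A-LMNB1 and the untethered enzymes, and in the highest it again lay between them. Across 27119 bins the log2 fold change correlated with the bulk log2 fold change at r = 0.649 (rho 0.701), a description of bins that share the genome's GATC sites.

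**Figure D3:**
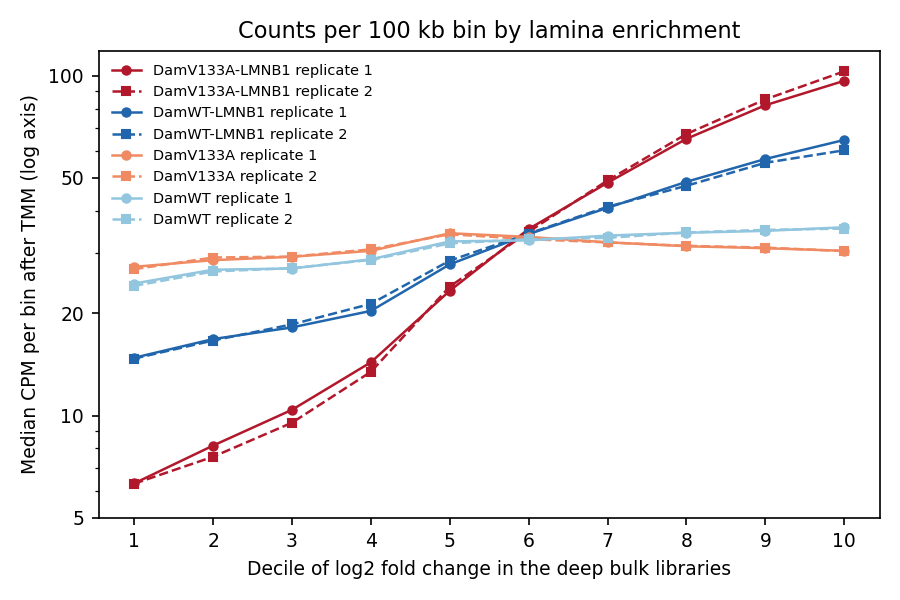
Median CPM per 100 kb bin after TMM (vertical log axis) by decile of the log2 fold change of the deep bulk libraries, from least to most lamina-enriched (horizontal axis). Lines are the 8 libraries. The DamV133A-LMNB1 lines run from about 6.3 CPM to 96.6 and 102.9, the DamWT-LMNB1 lines are flatter, and all lines meet near the sixth decile.

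Contact in single cells gave the same order at its low end and levelled at its high end. Over the 51 single cells, contact of a bin meant that a cell's fragments there were at or above the number expected from the share of the bin in the deep DamV133A libraries. Contact thus also rests on the V133A fusion and is not independent of the enzymes compared. Bins contacted in 0 to 20% of cells had a median log2 fold change of -0.89, with 7 of 8485 higher and 1154 lower. The medians were -0.22 at 20 to 40%, 0.29 at 40 to 60%, 0.51 at 60 to 80% and 0.49 at 80 to 100%, where 58 of 782 bins were higher and 1 lower. Within LAD bins the medians were closer together, from 0.25 in the 30 bins contacted in 0 to 20% of cells to 0.55 in the 5028 bins at 60 to 80%.

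Gene content and GATC density moved with the difference, and the medians spanned less within the classes than over all bins. Whether the classes account for this was not tested. Bins with no protein-coding gene had a median log2 fold change of 0.23, while the value was -0.34 for 1 gene, -0.68 for 2 and -0.88 for 3 or more. Within LAD bins these medians were 0.54, 0.47, 0.37 and 0.48, and within iLAD bins they ran from -0.79 without a gene to -1.02 with 3 or more. RNA level of the highest gene of a bin moved the median little, from -0.91 in iLAD bins under 1 CPM to -0.96 in those at 10 CPM or more. With bins ordered by their number of DpnI fragments and cut into 5 equal groups, the medians ran from 0.46 in the group with fewest fragments to -0.83 in that with most. Within LAD bins they ran from 0.60 to 0.29. Within iLAD bins they had no such order, at -0.90 in the first group, -0.97 in the last and -0.78 to -0.84 between. In bins with 200 to 250 fragments, a range chosen after seeing that only 10 LAD bins had 300 to 500, the contrast difference was 1.18 ± 0.08 over 7740 LAD and 2714 iLAD bins.

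At the borders of LADs the V133A fusion made a deeper step. The step is the log2 ratio of counts per DpnI fragment 100 to 300 kb inside a border to the same distance outside. Over 24 borders between a LAD run and an iLAD run of 5 or more bins, it was 1.69 and 2.01 in the DamV133A-LMNB1 libraries and 0.90 and 1.02 in DamWT-LMNB1. The difference between the fusions was 0.89 ± 0.25 (SD, n = 2 each), and the groups did not overlap (exact permutation p = 0.333, again the smallest possible). The step was -0.11 and -0.17 with untethered DamV133A and 0.16 and 0.30 with untethered DamWT. With 244 borders between runs of 5 or more bins of 1 sign of the bulk fold change, a rule added after the data were seen, the difference was 0.64 ± 0.15.

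Over these 244 borders, with levels scaled by library totals, the fusions differed most outside the border. In the first 100 kb inside, counts per fragment were 0.933 and 0.941 times the library mean with DamV133A-LMNB1 and 1.03 and 1.11 times with DamWT-LMNB1. The V133A fusion was thus lower there too on this scale. Bin levels elsewhere are also divided by TMM factors, 0.845 and 0.825 for DamV133A-LMNB1 and 0.963 and 1.01 for DamWT-LMNB1. The order of the fusions up to 300 kb inside therefore depends on the scaling. At 100 to 300 kb inside, levels by library totals were 1.23 and 1.28 times the mean with DamV133A-LMNB1 and 1.22 and 1.26 times with DamWT-LMNB1. The groups overlapped on this scale. At 100 to 300 kb outside, they were 0.503 and 0.453 times the mean with DamV133A-LMNB1 and 0.737 and 0.734 times with DamWT-LMNB1. At 0 to 100 kb outside, levels were 0.629 and 0.618 against 0.856 and 0.878, so the difference was present in the first 100 kb. At 300 to 500 kb inside they were 1.38 and 1.38 against 1.27 and 1.31, with the V133A fusion the higher one.

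**Figure D4:**
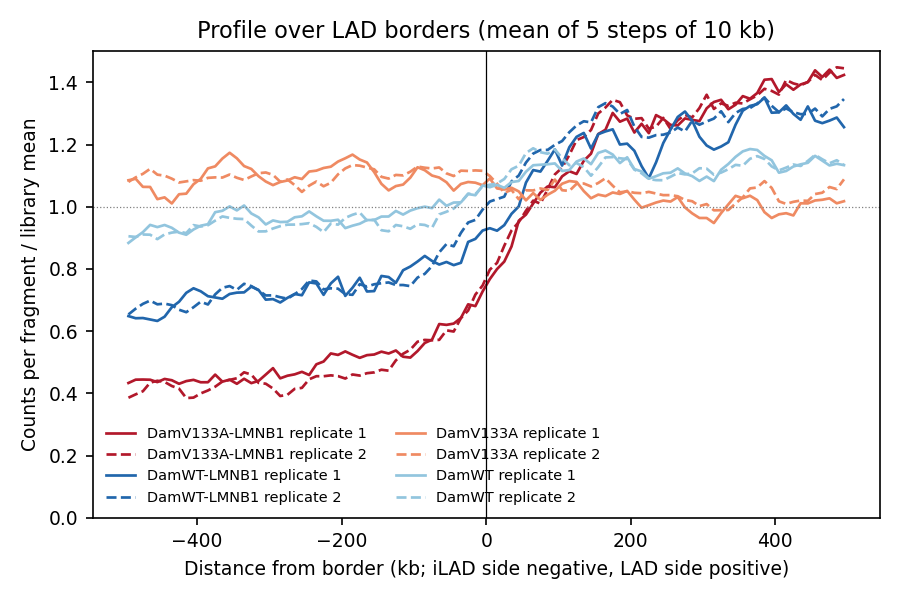
Counts per DpnI fragment relative to the library mean (vertical axis) by distance in kb from 244 LAD borders (horizontal axis, iLAD side negative), smoothed over 5 steps of 10 kb. Lines are the 8 libraries. On the iLAD side the DamV133A-LMNB1 lines run lowest, at 0.453 and 0.503 for 100 to 300 kb outside, and on the LAD side they start below the DamWT-LMNB1 lines, meet them at 100 to 300 kb and lie above them at 300 to 500 kb. The library mean is that of raw counts, and the order on the LAD side up to 300 kb depends on the scaling.

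Whole chromosomes differed in the same sense. Chromosome 4 had a median log2 fold change of 0.39, with 138 bins higher and 31 lower of 1883, and held 10.2% and 10.2% of the counts with DamV133A-LMNB1 against 8.78% and 8.59% with DamWT-LMNB1. Chromosome 13 had a median of 0.31, with 13.5% of 983 bins higher and 20 bins lower, and held 8.50% and 8.80% against 7.26% and 6.89%. These are chromosomes with long gene-poor arms. Both medians stayed above 0 under the 3 scalings and in covered fragments, at 0.15 and 0.07 with library totals. Without a tether the median bin was at 31.4 to 32.7 CPM after TMM on chromosome 4 and 37.0 to 39.6 on chromosome 13.

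The gene-dense chromosomes lay at the other end. Chromosome 22 had a median of -1.09, with 0 of 374 bins higher and 68 lower, and its share of counts was 0.272% and 0.260% with DamV133A-LMNB1, 0.615% and 0.617% with DamWT-LMNB1 and 1.12% to 1.19% without a tether. Chromosomes 17, 19 and 16 had medians of -0.87, -0.81 and -0.75, with 94 of 799, 54 of 560 and 94 of 804 bins lower. The order of neighbouring chromosomes in this list was not tested. Chromosomes 2, 3, 5, 6, 7, 12, 18 and 21 had medians from 0.06 to 0.18, and these turned negative under library totals, that of chromosome 18 in covered fragments too.

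**Figure D5:**
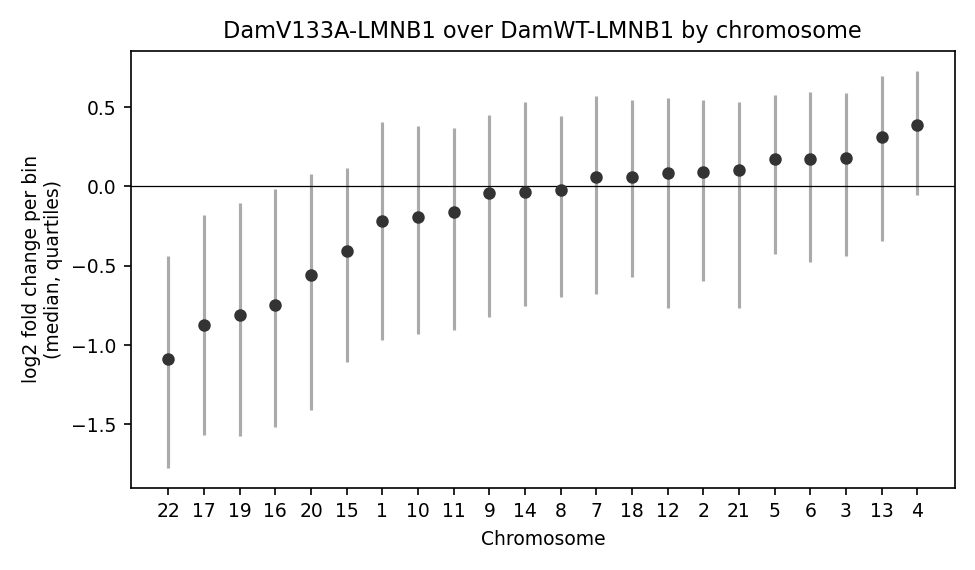
Median log2 fold change of DamV133A-LMNB1 over DamWT-LMNB1 per 100 kb bin (vertical axis) for each autosome (horizontal axis), with bars from the lower to the upper quartile of bins. Chromosomes are ordered by median, from chromosome 22 at -1.09 to chromosome 4 at 0.39, and the quartiles of neighbouring chromosomes overlap.

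The bins that were higher with the smallest adjusted p were gene-poor LAD stretches. At chr12:84700001-84800000, which holds no protein-coding gene, levels were 179.0 and 191.6 CPM after TMM with DamV133A-LMNB1 and 49.8 and 57.5 with DamWT-LMNB1, and 24.4 to 40.4 without a tether. The log2 fold change was 1.79 ± 0.26 (SE, edgeR adjusted p = 0.00833), and all 4 tethered libraries were above the untethered ones. At chr3:164300001-164400000, also without a gene, levels were 143.5 and 147.2 against 39.1 and 48.4 CPM. Here DamWT-LMNB1 overlapped the untethered range of 35.3 to 41.9 CPM.

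The bin chr13:69900001-70000000 lies in KLHL1, which encodes an actin-binding protein of neurons. It was at 348.2 and 318.3 CPM with DamV133A-LMNB1 and 102.0 and 139.6 with DamWT-LMNB1 (log2 fold change 1.47 ± 0.22, edgeR adjusted p = 0.00833). The bin chr13:63900001-64000000 was not in the deep bulk table and stood at 501.9 and 465.8 against 215.1 and 195.4 CPM. Without a tether these 2 bins of chromosome 13 were at 74.1 to 90.6 and 101.8 to 142.3 CPM. In PPFIA2, which encodes liprin alpha 2, a scaffold of synaptic release sites, the bin chr12:81500001-81600000 was at 194.2 and 142.6 against 57.4 and 46.2 CPM (log2 fold change 1.70 ± 0.27). HPGD, the enzyme that inactivates prostaglandins, overlaps chr4:174400001-174500000, which was at 197.7 and 169.6 against 47.0 and 72.5 CPM. The bins chr4:125700001-125800000 and chr3:103400001-103500000 hold no gene and had log2 fold changes of 1.67 ± 0.25 and 1.53 ± 0.25. In all 8 of these bins both V133A fusion libraries lay above both wild-type fusion libraries, a pattern that 7115 of the 27212 bins had.

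Called bins were mostly isolated. Of the runs of consecutive higher bins 669 were a single bin, and of the lower runs 1055 were. The longest higher run covered 800 kb of chromosome 13 (70200001 to 71000000), with 7 LAD bins and no gene, at a mean of 279.8 and 318.3 CPM with DamV133A-LMNB1 and 163.2 and 143.6 with DamWT-LMNB1. Other higher runs on chromosome 13 covered 600 kb (69100001 to 69700000) and 500 kb (68000001 to 68500000). Thus 3 of the 5 longest lay between 68000001 and 71000000 of that chromosome. Without a tether these 3 were at means of 77.2 to 112.9 CPM, beside medians of 30.8 to 31.2 over all bins. Their median log2 fold changes were 0.84 to 0.99. A run of 600 kb on chromosome 1 (191800001 to 192400000) held RGS18 and RGS21, 2 regulators of G-protein signalling, and was at 163.4 and 184.9 against 86.8 and 79.3 CPM. A run of 500 kb on chromosome 12 (74200001 to 74700000) held ATXN7L3B and was at 120.4 and 120.9 against 49.5 and 54.6 CPM. In the runs of chromosomes 1 and 12 the untethered means were 33.2 to 46.3 CPM, and the median log2 fold changes were 1.08 and 1.14. The part of the level of counts in the length of runs was not tested.

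The bins that were lower with the smallest adjusted p were iLAD bins in which the V133A fusion left almost no counts. At chr16:6600001-6700000, inside RBFOX1, which encodes a neuronal splicing regulator, the DamV133A-LMNB1 libraries held 1 and 2 counts and the DamWT-LMNB1 libraries 156 and 78. Scaled to library totals, DamWT-LMNB1 was 93.0 times higher, with an exact 95% interval of 31.4 to 454 that covers counting error only. The untethered libraries held 53 to 117 counts there. This bin was contacted in 45.1% of the single cells. At chr12:114000001-114100000, which holds no gene, counts were 6 and 2 against 432 and 57, or 72.9 times (36.7 to 170) by the same method, and the wild-type replicates stood at 44.2 and 12.1 CPM.

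Most of the other bins named by this rule hold genes. At chr6:31000001-31100000, with the mucin gene MUC22, counts were 4 and 3 with DamV133A-LMNB1 and 231 and 80 with DamWT-LMNB1 (log2 fold change -5.37 ± 0.68, edgeR adjusted p = 0.00833). At chr12:52400001-52500000, with the epithelial keratin genes KRT6A, KRT6B, KRT6C and KRT75, they were 5 and 4 against 256 and 74. Reads of the KRT6 genes may be shared among near-identical copies. At chr6:41000001-41100000, with NFYA, a subunit of the CCAAT-binding factor, and APOBEC2, a muscle member of the cytidine deaminase family, counts were 3 and 2 against 138 and 55. At chr2:217700001-217800000, in TNS1, which encodes the focal adhesion protein tensin 1, they were 2 and 6 against 323 and 64. At chr22:46900001-47000000, in TBC1D22A, they were 4 and 2 against 174 and 58, and at chr22:27400001-27500000, without a gene, 2 and 3 against 196 and 49. Over these 8 bins the wild-type fusion was at 10.4 to 44.2 CPM, the untethered enzymes at 14.1 to 42.5 and the V133A fusion at 0.132 to 0.840.

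The longest lower run covered 500 kb of chromosome 16 (21500001 to 22000000) with IGSF6, METTL9, OTOA and UQCRC2, the last a subunit of respiratory complex III. Its mean level was 3.71 and 1.62 CPM with DamV133A-LMNB1 and 12.8 and 17.0 with DamWT-LMNB1. The region holds duplicated sequence such as NPIPB4, whose reads could fall to copies, so its level is uncertain. A run of 400 kb on chromosome 21 (41900001 to 42300000) with the cholesterol transporter gene ABCG1, UMODL1, C2CD2 and ZBTB21 was at 1.81 and 2.21 against 28.4 and 15.9 CPM. A run of 400 kb on chromosome 11 (68500001 to 68900000) held CPT1A, which admits fatty acids to mitochondria, and the neuropeptide gene GAL, and was at 2.60 and 3.08 against 21.7 and 19.0 CPM. A second run on chromosome 11 (33600001 to 34000000), with the complement inhibitor gene CD59 and the haematopoietic regulator LMO2, was at 4.08 and 5.74 against 23.9 and 23.4 CPM. A run of 400 kb on chromosome 3 (37800001 to 38200000) with MYD88, the adaptor of Toll-like receptors, and ACAA1, an enzyme of peroxisomes, was at 5.43 and 6.93 against 31.1 and 23.1 CPM. In each of these runs both V133A fusion libraries lay below both wild-type fusion libraries in mean level, though the runs were chosen for being lower. Of all 27212 bins, 7180 (26.4%) had this order.

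Families with many members in LADs varied. Values of a gene here are those of the bin that holds its midpoint, and all 20 lists were chosen with earlier results of these data known. The 8 bins of the type 2 UDP-glucuronosyltransferases, enzymes that conjugate steroids and drugs, were all LAD bins and had a median log2 fold change of 0.96, against 0.52 over all LAD bins, and 1 bin was called higher (12.5%, beside 9.65% of all LAD bins). Scaled by library totals 0 of them were called, and 5 by the size factors of DESeq2. That bin holds UGT2A3 (chr4:68900001-69000000), at 124.2 and 106.7 CPM with DamV133A-LMNB1 and 52.3 and 60.3 with DamWT-LMNB1 (log2 fold change 1.04 ± 0.28, edgeR adjusted p = 0.0348). Of 13 bins of type II cadherins, adhesion proteins of neurons among other cells, 9 were LAD and 3 iLAD bins, and the median was 0.41. Of the 13, 1 was higher (7.69%, beside 3.73% of all bins and 9.65% of LAD bins). This was the bin of CDH9 (chr5:26900001-27000000), at 96.0 and 134.0 against 46.3 and 54.8 CPM. With library totals 0 cadherin bins were higher and 1 was lower. GABA-A receptor subunits (15 bins), contactins and their associated proteins (13 bins) and bitter taste receptors (11 bins) had medians of 0.59, 0.58 and 0.35 with 0 bins called in either direction by edgeR. At an unadjusted p under 0.05 there were 4, 3 and 4 such bins, and DESeq2 called 3, 2 and 1 higher and 1 lower in each. The 7 bins of the clustered protocadherins and 2 of the trace amine receptors had medians of 0.24 and 0.30, with 0 bins called by edgeR or DESeq2 and 0 at an unadjusted p under 0.05.

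Olfactory receptors, the odorant receptors of the nose, had a median of 0.04 over 167 bins, of which 95 were LAD and 37 iLAD bins. Of these, 3 bins were higher (1.80% against 3.73% of all bins) and 6 lower (3.59% against 5.30%), and the median was -0.20 with library totals. OR6B2 and OR6B3 share a bin (chr2:240000001-240100000) that was at 2.37 and 0.280 CPM with DamV133A-LMNB1 and 24.1 and 7.46 with DamWT-LMNB1. The bin of OR6J1 (chr14:22600001-22700000) was at 0.395 and 4.06 against 19.1 and 19.0 CPM. Ionotropic glutamate receptors had 7 LAD and 7 iLAD bins of 17 and a median of -0.64. Of the 17, 3 bins were lower (17.6%, beside 5.30% of all bins and 13.1% of iLAD bins), of which 0 were called in covered fragments. One of these holds GRIK3, a kainate receptor (chr1:36900001-37000000), with 4 counts over both V133A fusion libraries and 165 over both wild-type fusion libraries, 49.2 times more by total (exact 95% interval 18.9 to 183). The other lower ones hold GRIN1 and GRIN3B, subunits of NMDA receptors, at log2 fold changes of -3.02 ± 0.85 and -2.63 ± 0.77.

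Beta defensins, antimicrobial peptides, had 1 higher (5.56%) and 4 lower (22.2%) of 18 bins, beside 3.73% and 5.30% of all bins. Among all iLAD bins 13.1% were lower. Of the 18, 8 were iLAD and 2 LAD bins, and the median was -0.80. In covered fragments 0 were higher and 2 lower. The bin chr8:7800001-7900000, with DEFB103A, DEFB104A and DEFB105A, held 0 and 0 counts with DamV133A-LMNB1 and 46 and 27 with DamWT-LMNB1, at least 29.0-fold lower against a floor of 3 counts over the group. The cluster has near-identical copies among which reads could be split, so the bin is uncertain. Keratin-associated proteins of hair had 10 iLAD and 4 LAD bins of 18 and a median of -0.70, which was 0.02 in covered fragments with 0 called. Of the 18, 2 bins were lower (11.1%, beside 5.30% of all bins and 13.1% of iLAD bins). KRTAP5-3, KRTAP5-4 and KRTAP5-5 share 1 of these bins (chr11:1600001-1700000), at 1.45 and 0.560 against 7.06 and 10.9 CPM. The 2 globin bins had a median of -0.30, which was 0.00 in covered fragments, with 0 called by edgeR or DESeq2 and 0 at an unadjusted p under 0.05.

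Families of widely expressed genes lay mostly in iLAD bins and on the lower side. Cytosolic ribosomal protein genes had 63 of 78 bins in iLADs, a median of -0.80, 12 bins lower (15.4%) and 0 higher, beside 13.1% lower among all iLAD bins. In covered fragments the calls of such families were mostly lost: 1 bin was lower with a median of -0.41 for ribosomal protein genes, 2 with -0.36 for proteasome subunits, 0 with -0.28 for nucleoporins, 0 with -0.48 for glycolysis and 0 with -0.23 for histones. Over all iLAD bins that unit gave a median of -0.50 with 371 bins lower. The bin of RPS25 (chr11:119000001-119100000) was at 1.45 and 3.22 CPM with DamV133A-LMNB1 and 25.2 and 13.6 with DamWT-LMNB1 (log2 fold change -3.06 ± 0.61, edgeR adjusted p = 0.0149). RPLP0 (chr12:120100001-120200000) was at 0.789 and 3.50 against 14.5 and 21.5 CPM, and RPS9 (chr19:54200001-54300000) at 2.50 and 0.560 against 17.8 and 8.52. Proteasome subunits had 4 lower of 36 bins (11.1%, below the 13.1% of all iLAD bins) and a median of -0.69. Among them, PSMD6, of the regulatory particle (chr3:64000001-64100000), was at 17.9 and 6.30 against 70.8 and 39.6 CPM. PSMB2, of the catalytic core, had a log2 fold change of -2.46 ± 0.59, and PSMD9, an assembly factor, was at 3.42 and 2.52 against 11.5 and 17.7 CPM.

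Nucleoporins, which build the nuclear pore, had 5 lower of 32 bins (15.6%, near the 13.1% of all iLAD bins) and a median of -0.82. NUP214, of the cytoplasmic face of the pore (chr9:131100001-131200000), was at 0.658 and 4.20 against 38.0 and 11.7 CPM, and POM121 and NUP210, membrane proteins of the pore, had log2 fold changes of -3.07 ± 0.80 and -2.91 ± 0.72. POM121 has close copies, so its bin is uncertain. Genes of glycolysis had 2 lower of 16 bins (12.5%, also near that share) and a median of -1.13. These were PFKM (chr12:48100001-48200000), at 3.03 and 1.68 against 22.6 and 11.5 CPM, and LDHA, which makes lactate (chr11:18400001-18500000), at 6.31 and 8.40 against 28.7 and 30.3. The 9 bins of HOX genes, regulators of body axis patterning, had a median of -1.09 with 0 called in either direction by edgeR, 2 at an unadjusted p under 0.05 and 1 called lower by DESeq2.

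Histone genes had 4 lower of 18 bins (22.2%, beside 5.30% of all bins and 13.1% of iLAD bins) and a median of -0.86. Among these were the bins of H2BN1 (chr17:32900001-33000000), with a log2 fold change of -3.19 ± 0.61, and of H2AC25 and H2BC26, which share chr1:228400001-228500000, at -2.05 ± 0.59. Zinc finger genes of the ZNF series, many of which repress transposons, had 26 lower of 345 bins (7.54%, against the same shares) and a median of -0.40, with 6 lower in covered fragments. ZNF561 and ZNF562 share chr19:9600001-9700000, which was at 1.45 and 1.12 CPM with DamV133A-LMNB1 and 31.0 and 20.7 with DamWT-LMNB1, and ZNF114 (chr19:48200001-48300000) held 11 and 10 counts against 193 and 84. The pregnancy-specific glycoproteins and CEACAM adhesion genes had 2 lower of 15 bins (13.3%, near the share of iLAD bins) and a median of -1.10, with PSG2 and PSG11 sharing chr19:43000001-43100000 at 11.6 and 5.04 against 30.7 and 30.5 CPM. Their reads may be shared among similar copies. CEACAM3, a receptor of granulocytes (chr19:41800001-41900000), was at 2.76 and 3.78 against 23.1 and 23.0.

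Levels near gene starts were compared as well. Only DpnI fragments of 200 to 1000 bp were used. For genes with RNA (1 CPM or more) in iLAD bins, counts per fragment within 1 kb of the start were compared with those 20 to 50 kb away. The log2 ratio was -0.01 and 0.09 with DamV133A-LMNB1 and -0.40 and -0.96 with DamWT-LMNB1, a difference of 0.72 ± 0.40 (SD, n = 2 each). The groups did not overlap, but exact permutation p was 0.333, the smallest possible, and the wild-type replicates differed by nearly as much. Without a tether the ratio was -0.86 ± 0.03 with DamV133A and -1.57 ± 0.00 with DamWT, a difference of 0.71. The difference with the tether minus that without was 0.00 (exact permutation p = 1). Counts per covered fragment were higher in untethered DamV133A (10.2 and 6.38) than in DamWT (4.56 and 3.23), and in DamWT-LMNB1 replicate 1 (24.1) than in replicate 2 (5.81), as this ratio was. DamV133A-LMNB1, at 19.5 and 18.7, was below the first of these 2 libraries in counts per covered fragment and above it in the ratio. The part of this depth in the result was not tested. Genes without RNA were those under 0.1 CPM, and fragments near the start of a gene with RNA were left out for them. For genes without RNA in iLAD bins the fusions differed by 0.91 ± 0.27, and for genes with RNA in LAD bins by 0.32 ± 0.37, where the groups overlapped (exact permutation p = 0.667). These differences were not tested against each other. At 1 to 5 kb from the start of genes with RNA in iLAD bins the log2 ratios were -0.09 ± 0.03 and -0.09 ± 0.02 with the fusions.

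The difference between the fusions could be set against that between the untethered enzymes, through the interaction term of the same fit. By edgeR at adjusted p under 0.05, 66 bins (0.243%) were more positive and 125 (0.459%) more negative with the tether than without, of which 62 were LAD and 118 iLAD bins respectively. The classes share both V133A constructs with this term, though not its libraries, so the split by class is partly set by their definition. Of these 191 bins, 178 were also called in the same direction between the fusions. Of the bins with the smallest p on the positive side, that at chr14:43300001-43400000 was at 87.7 and 118.6 CPM with DamV133A-LMNB1, 29.8 and 30.3 with DamWT-LMNB1, 21.0 and 22.9 with DamV133A and 41.9 and 33.3 with DamWT. The bin of NCAM2, a neural cell adhesion gene (chr21:20900001-21000000), was at 78.7 and 92.4, 36.5 and 39.4, 18.7 and 17.4, and 46.9 and 38.6 CPM in the same order. In both bins V133A was the higher enzyme with the tether and the lower one without it. On the negative side, the bin of OSBPL5, a lipid transfer protein gene (chr11:3100001-3200000), held 0 and 0 counts with DamV133A-LMNB1 and 63 and 59 with DamWT-LMNB1, at least 48.5-fold lower against a floor of 3 counts over the group, and 54 to 81 in the untethered libraries. The bin of MVB12B, an endosomal sorting gene (chr9:126400001-126500000), held 2 and 2 against 171 and 46. Without any 1 of 5 libraries, namely DamWT-LMNB1 replicate 1 or any untethered library, 0 bins passed by edgeR, with 3432 to 5436 at an unadjusted p under 0.05, against 5991 in the fit of 8. DESeq2's interaction term called 4331 bins with the 8 libraries. Without any 1 of the others, 412 to 623 bins were more positive and 456 to 1914 more negative.

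Single fragments were too variable to test well. Of 334469 fragments tested, edgeR called 1 higher (0.000299%) and 34 lower (0.0102%), with 13441 at an unadjusted p under 0.05. The spread between replicates was large, at a common dispersion of 3.29 per fragment and 0.116 per bin. The median log2 fold change was 0.00 over tested fragments of LAD bins and -1.10 over those of iLAD bins, of which 22.7% were positive. Of the called fragments, 12 lay between 46385647 and 46400723 and 5 between 34581975 and 34595444 of chromosome 16, next to the centromere, where copies of repeats can share reads and counts are uncertain. The fragment with the smallest p, chr16:34581975-34583049, held 312 and 188 counts with DamV133A-LMNB1, 747 and 730 with DamWT-LMNB1, 725 and 836 with DamV133A and 1850 and 1517 with DamWT, so V133A was the lower enzyme there with and without the tether. The higher fragment, chr1:633902-635048, held 2538 and 3806 against 1091 and 641 counts. It lies where RefSeq places nuclear copies of mitochondrial genes, so reads of mitochondrial DNA could count toward it and its value is uncertain.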

How the data were processed

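DNA from HEK293T cells with 4 Dam constructs was measured by DamID in 8 libraries. The authors deposited whole-number counts per DpnI fragment, not scaled per the file headers, for chromosome positions that match GRCh38: all 18717 GATC sites of the RefSeq promoter windows fell at fragment ends. For the deep bulk libraries and single cells the authors deposited counts per 100 kb bin, with the authors' marks of control LAD and iLAD bins, a code that is other than a measurement. The authors also deposited a log2 fold change per bin of the deep bulk libraries, which was not used, since classes were set by an edgeR fit. Expression values were deposited as estimated counts. Tools named, without roles, in the submitters' processing notes were bedtools 2.28, SAMtools 1.9, Trimmomatic 0.39 and BWA 0.7.15-r1140, with build hg38. Their settings are not given in the sources used here.

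Fragments were summed to 100 kb bins of chromosomes 1 to 22 by midpoint and tested with edgeR 4.0.16 in R 4.3.3 (filterByExpr, TMM, glmQLFit, glmQLFTest, Benjamini-Hochberg), with the 4 groups in 1 fit. Standard errors (SE) are the log2 fold change over the square root of its F. Levels of bins are CPM after TMM, except where totals are named. DESeq2 1.42.0 was an alternative. The rest used Python 3.11.15 with pandas 2.3.3 and SciPy 1.17.1. PCR reads are not independent molecules, so intervals cover counting error only. Of 18973 placed RefSeq genes, 18238 (96.1%) matched RNA. A low border count (24) led to the added rule for borders. Tested on simulated data of 27107 bins, the fit recovered 44% and 36% of 4-fold higher and lower bins and 2% and 0% of 2-fold ones. Only 50 bins per fold and direction were changed there, while the data differed over whole classes. These rates therefore need not hold for the real fit. At the fragments' spread it recovered 0 of 200 changes of 16-fold among 20000 fragments.

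The members, lists and rules were chosen with earlier results of these data known. Named bins were, for each direction, the 8 called bins of smallest adjusted p, the 5 longest runs, and the 5 bins and fragments with the smallest p for the interaction and single fragments, and named genes at most 3 called members per family with the largest change, of which not all are printed. Alternatives were other scalings, tests, filters, units and bin sizes, the replicate number as a block, and each library left out.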

Additional observations from a re-analysis of the deposited data

Results flagged for a closer look

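The difference between the enzymes ran opposite ways with and without the tether. Both DamV133A-LMNB1 libraries had a higher LAD contrast than both DamWT-LMNB1 libraries, and both DamV133A libraries a lower one than both DamWT libraries, and the 2 differences were 1.58 apart on the log2 scale. For the border step they were 1.26 apart. Exact permutation of the enzyme labels within tethered and within untethered libraries gave p = 0.0556 for each, the smallest that the design allows. The classes came from DamV133A-LMNB1 over untethered DamV133A, a choice that can itself raise V133A with the tether and lower it without. Between bins with no protein-coding gene and bins with 3 or more, a division without Dam libraries, the untethered difference was -0.17. There the 2 differences were 1.04 apart.

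Single bins in which the tethered and untethered differences were called different by edgeR's interaction term (adjusted p under 0.05) were these. On the positive side the interaction was 2.56 at chr14:43300001-43400000, 2.51 at chr3:145600001-145700000, 2.42 at the bin of NCAM2, 2.41 at chr6:67400001-67500000 and 2.41 at chr3:165400001-165500000, 1.92 at chr3:103400001-103500000 and 1.55 at the bin of KLHL1. The bin on chromosome 6 was not called between the fusions themselves, with an adjusted p of 0.138 by edgeR, and its untethered libraries were at 9.77 and 14.6 CPM with DamV133A and 33.4 and 44.1 with DamWT.

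On the negative side, with few or no counts in DamV133A-LMNB1 and fitted values that are no bounds, it was -9.11 at the bin of DEFB103A, -8.32 at OSBPL5, -6.25 at MVB12B, -6.10 at chr12:114000001-114100000, -5.93 at MUC22, -5.86 at RBFOX1, -5.54 at NFYA, -5.47 at chr22:27400001-27500000, -5.16 at TNS1, -5.15 at TBC1D22A, -4.98 at the KRT6 genes, -5.49 at GRIK3, -4.46 at ZNF561 and -4.15 at ZNF114.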

How the results depend on the processing

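Direction held for the LAD contrast, the border step and each named bin under the alternatives that gave a value. The contrast difference of 1.31 was 1.75 with the authors' control bins, 0.87 between gene-free and gene-rich bins, 0.94 in covered fragments, 1.07 after thinning, 1.18 in bins with 200 to 250 fragments, and 1.23 to 1.38 with a tethered library left out. The border step difference of 0.89 was 0.52 with runs of 10 or more bins (4 borders), 0.64 with runs of 1 sign, and 0.72 to 1.05 with a library left out. Under other scalings, higher and lower bins numbered 1634 and 1361 (size factors of DESeq2) or 278 and 2168 (totals), 3955 and 3288 by DESeq2, 1 and 0 from the tethered libraries alone, 835 and 416 in covered fragments (430 and 214 of them shared with the counts), 50 and 341 in 50 kb bins and 46 to 1167 and 244 to 2864 with a library left out. In 500 kb bins 1369 and 1634 of 5527 were called. Interaction bins numbered 161 and 131 (size factors of DESeq2) or 22 and 252 (totals), 538 and 430 in covered fragments, and 0 to 623 and 0 to 1914 with a library left out. In settings added for the interaction after the data were seen, edgeR called 0 and 0 of 54044 bins of 50 kb, with 7392 at an unadjusted p under 0.05, and 1240 and 1307 of 5527 bins of 500 kb, and DESeq2 called 2513 and 1818 bins of 100 kb. Fragments called numbered 2 and 23 with library totals and 0 and 14 of 665913 at 10 or more counts.

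The replicate numbers come from the sample titles, and whether same-numbered libraries shared a batch cannot be told. Deviations of same-numbered libraries correlated at -0.0003 to 0.029, after a scaling to totals that removes shifts in depth. Replicate 1 had more counts than replicate 2 in each construct, in total and per covered fragment. With the replicate block 886 bins were higher and 1218 lower, and 0 and 0 passed edgeR's test for the interaction, with 5940 at an unadjusted p under 0.05. Of 60 results for named bins and family members, 48 stayed past the threshold with the replicate block and 12 did not, and 27 did in covered fragments. Without DamWT-LMNB1 replicate 1, 22 of the 60 did, without an untethered library 27 to 29, and without another tethered library 52 to 56. From the 4 tethered libraries alone 0 of the 50 named results with a value did.

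Depth limits single bins: 8.04% and 8.57% of iLAD bins held under 10 counts with the V133A fusion, where fold changes have wide errors, and 2 replicates a group leave permutation tests unable to pass the threshold.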
